A study of Mus musculus with 6 samples.

Results

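The colony-stimulating factors and their receptors were examined in mouse spinal cord after a contusion. The set holds 8 genes, taken by symbol: the ligands Csf1, Il34, Csf2 and Csf3 and the receptor genes Csf1r, Csf2ra, Csf2rb and Csf3r. All 8 matched a row among the 43432 gene identifiers of the count tables. The SCI group was 3 wildtype C57BL/6 mice with a contusion of the cord on 1 side at cervical level 5, made with an Infinite Horizon impactor set to 50 kdyne and collected 4 h later. The sham group was 3 wildtype C57BL/6 mice with the laminectomy only, that is, with bone over the cord removed at the same level and no blow. The labels give no separate collection time for the sham mice, and they give no sex or age. The labels give the tissue as spinal cord, with no length or side of the piece taken. It was not separated into cell types, so each value is a sum over all the RNA in the sample.

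Colony-stimulating factors are secreted proteins that keep myeloid cells alive and make them divide, mature and act. CSF1 and IL-34 are unrelated in sequence but bind the same receptor tyrosine kinase, CSF1R, on which microglia depend for survival. In the central nervous system IL-34 comes largely from neurons. GM-CSF, the product of Csf2, binds a receptor of a ligand-specific alpha chain (Csf2ra) and a beta chain that IL-3 and IL-5 receptors share (Csf2rb), and it drives inflammatory functions of monocytes and macrophages. G-CSF, the product of Csf3, is made by endothelial cells, fibroblasts and macrophages under inflammatory stimuli, and through CSF3R it releases neutrophils from bone marrow and prolongs their survival.

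The libraries held 8229961, 6499952 and 5364263 counts in SCI mice 1 to 3 and 7591326, 11543633 and 3407176 counts in sham mice 1 to 3. Levels are in CPM, the count of a gene per 1000000 counts of its library. Libraries were made from the 3′ ends of transcripts, where a count does not scale with transcript length, so levels of different genes were compared without a length correction. The limit that a count of 0 allows, set at 3 counts, was between 0.260 and 0.880 CPM per library. Transcripts of 10 hepatocyte marker genes, which are typical of liver, took 7.50 to 7.73% of the counts of SCI libraries and 5.98 to 11.1% of those of sham libraries, with the highest share in sham mouse 2. The labels give no source for these transcripts. How much of the levels below came with them is not known. The labelled tissue was present in all 6 libraries, since 8 neuron markers summed to 4223 to 4602 CPM in SCI mice and 3451 to 6093 CPM in sham mice.

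The message of many cytokines carries repeats of ATTTA in its 3′ untranslated region, a sequence that proteins bind to hasten decay and that is typical of genes switched on briefly. The 30 bases of each ligand's longest annotated 3′ untranslated region with the most such repeats are shown because the 2 ligand genes without a count in sham mice, Csf2 and Csf3, hold the most of them. ATTTA is in capitals, each line reads 5′ to 3′ on the coding strand, and positions are on GRCm38.

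Csf1, chr3:107741096-107741125, minus strand: ATTTAaatatctATTTAaaaaataggaagc
Il34, chr8:110741840-110741869, minus strand: cctttttctattaaatggccATTTAtttgg
Csf2, chr11:54247320-54247349, minus strand: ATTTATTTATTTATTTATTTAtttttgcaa
Csf3, chr11:98702992-98703021, plus strand: ATTTAtctctATTTAatATTTAtgcatatt

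The window of Csf2 holds 5 overlapping repeats and that of Csf3 holds 3, against 2 for Csf1 and 1 for Il34. Of 20846 genes with an annotated 3′ untranslated region, 0.273% have a window with at least 5 repeats, 2.59% have at least 3, 18.9% have at least 2 and 65.7% have at least 1. These regions differ in length, 317 bases in Csf2 and 669 in Csf3 against 2111 in Csf1 and 605 in Il34. The repeats are a description of the sequence, and no decay was measured here.

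Csf3 was the ligand gene with a clear difference: it was counted in every SCI library and in no sham library. Csf1 and the shared receptor chain Csf2rb were higher in every SCI mouse than in every sham mouse, by 1.59-fold and 1.78-fold, but neither passed the adjusted test. Il34, Csf1r and Csf2ra overlapped between the groups. Csf2 had no count in any library and Csf3r no more than 5. The filter on low counts let 5 of the 8 genes into the edgeR test, and 0 of these 5 were called at an adjusted p under 0.05, a threshold that 0.929% of the 13560 genes tested passed in either direction. At an unadjusted p under 0.05, Csf1 and Csf2rb of the 5 were higher and 0 were lower, where 4.27% of all genes tested were higher and 3.11% lower. DESeq2 and limma voom also called 0 of the 5. The 2 genes without overlap compare with 7.81% of all genes tested in which every SCI library stood above every sham library. The median log2 fold change of the 5 was 0.41, beside -0.0025 over all genes tested.

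**Figure D1:**
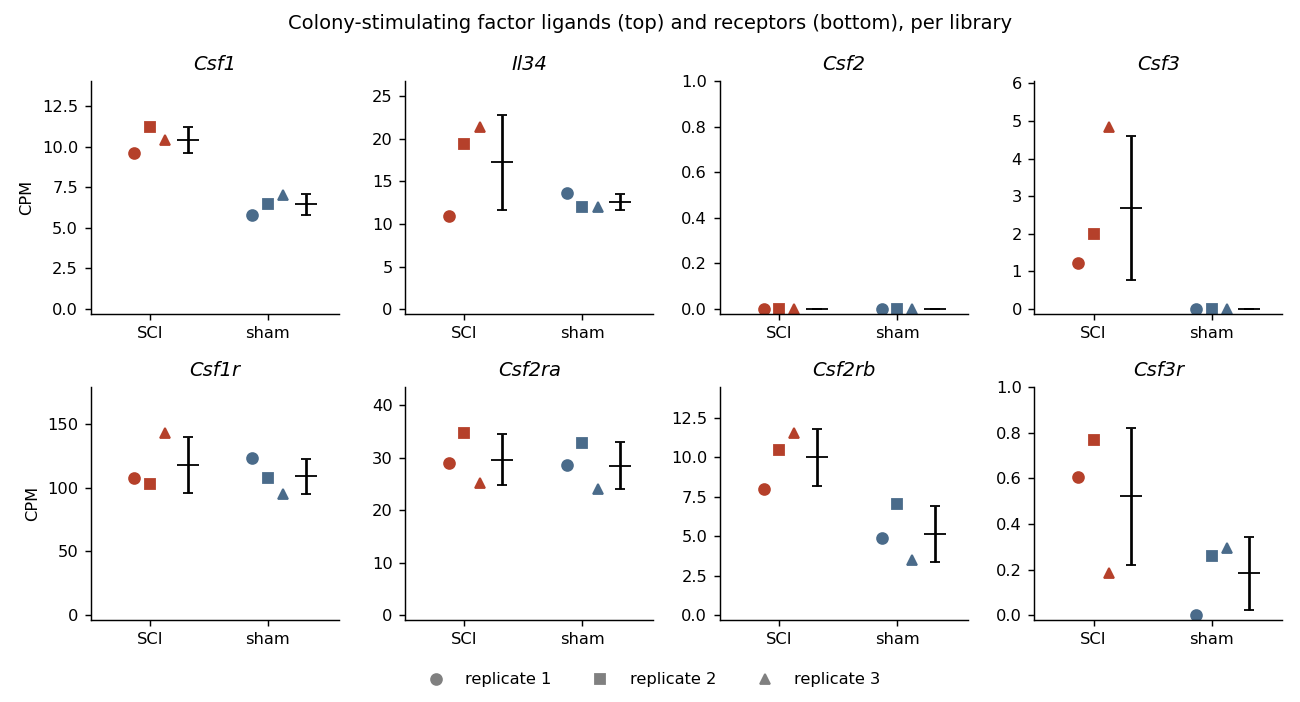
CPM of the 4 ligand genes (top row) and the 4 receptor genes (bottom row) in each library, with SCI left of sham in each panel; marker shapes are replicates 1 to 3, and the bar is the mean with the SD (n = 3). Each panel has its own linear axis. Csf3 lies between 1.22 and 4.85 CPM in SCI mice and at 0 in sham mice, while Csf1r and Csf2ra overlap between the groups.

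Csf3 (ENSMUSG00000038067, chr11:98701263-98703629, plus strand) had 10, 13 and 26 counts in SCI mice 1 to 3 and 0 counts in each sham mouse. These are 1.22, 2.0 and 4.85 CPM in SCI mice, with exact 95% counting intervals of 0.583 to 2.23, 1.06 to 3.42 and 3.17 to 7.10 CPM. In the sham mice a count of 0 allows up to 0.395, 0.260 and 0.880 CPM. SCI mouse 3 was the highest, and its interval overlaps that of mouse 2 but not that of mouse 1. The mean was 2.69 ± 1.91 CPM in SCI mice (SD, n = 3). The 49 counts summed over SCI mice, set against 3 counts over the whole sham group and scaled to depth, gave an 18.3-fold difference. This fold takes the sham level at its limit but the SCI counts as exact, and it covers no spread between mice. It was 11.7-fold without SCI mouse 3, 12.2-fold without sham mouse 1 and 8.94-fold without sham mouse 2. By exact two-sided permutation of the CPM p was 0.1, the smallest that 3 against 3 mice allow.

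Csf3 did not reach the count that the filter asks for, so it was tested in the fit of all 21524 genes with a count. There its adjusted p was 9.5e-07 (edgeR quasi-likelihood test). It rests on a variance shared over genes more than on the spread of Csf3 between these mice. In that fit 0.846% of the genes were called higher and 1.04% in either direction. The fitted log2 fold change of 7.22 ± 1.21 depends on the prior count and is no bound. Leaving out SCI mouse 3, the library with the most Csf3 counts, left an adjusted p of 0.0077 in the unfiltered fit. With sham mouse 1 left out the gene passed the filter, and its adjusted p there was 0.0763, against 1.5e-04 without the filter. Of all genes with a count, 2 had no count in any sham library and at least 10 in every SCI library, 0.00929% of 21524: Csf3 and Ptgs2, which encodes the inducible cyclooxygenase that starts prostaglandin synthesis. That criterion was chosen after the values were seen.

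Csf1 (ENSMUSG00000014599, chr3:107741048-107760469, minus strand) had 79, 73 and 56 counts in SCI mice and 44, 75 and 24 counts in sham mice. Scaled to depth this was 9.60, 11.2 and 10.4 CPM in SCI mice against 5.80, 6.50 and 7.04 CPM in sham mice. The lowest SCI mouse was above the highest sham mouse. The means were 10.4 ± 0.816 CPM in SCI mice and 6.45 ± 0.626 CPM in sham mice (SD, n = 3 each). The log2 fold change was 0.67 ± 0.25 (SE), a fold of 1.59 with a 95% interval of 1.09 to 2.31, with an unadjusted p of 0.0187 and an adjusted p of 0.487 (edgeR).

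The promoter of Csf1 is shown because Csf1 was the tested ligand gene whose groups did not overlap. RefSeq sequences from 250 bases before to 50 after the gene start (GRCm38.p6) were matched for 4 of the 8 genes, Csf1, Csf2, Csf2ra and Csf3r. The NF-kB consensus, searched on both strands, lies on the strand opposite to the gene with its first base 154 bases before the start, and is in capitals.

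Csf1 promoter, chr3:107760420-107760719, minus strand: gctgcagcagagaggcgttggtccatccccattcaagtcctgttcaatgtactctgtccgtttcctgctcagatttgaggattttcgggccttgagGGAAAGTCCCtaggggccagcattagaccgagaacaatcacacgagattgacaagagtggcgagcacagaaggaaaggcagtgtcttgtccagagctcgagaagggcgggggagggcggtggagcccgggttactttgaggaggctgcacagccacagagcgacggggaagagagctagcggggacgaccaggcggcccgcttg

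The consensus is in 8.18% of 27025 promoters of this length, and of the 4 matched it is also in that of Csf3r. The AP-1 motif TGANTCA, in 7.93% of promoters, is in none of the 4 windows. A match is a description of the letters, and no binding was measured.

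Il34 (ENSMUSG00000031750, chr8:110741829-110805924, minus strand) was the most abundant ligand gene in every sham library and in every SCI library. It had 90, 126 and 115 counts in SCI mice and 104, 139 and 41 counts in sham mice. This was 10.9, 19.4 and 21.4 CPM in SCI mice against 13.7, 12.04 and 12.03 CPM in sham mice. SCI mouse 1 was below all 3 sham mice, and SCI mice 2 and 3 were above them. The means were 17.3 ± 5.57 CPM in SCI mice and 12.6 ± 0.960 CPM in sham mice (SD, n = 3 each), and the log2 fold change was 0.41 ± 0.26 (SE; 95% interval -0.15 to 0.97; edgeR adjusted p = 0.824).

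The 2 ligands of CSF1R were also set against each other within each library, which does not depend on how libraries are scaled. The count of Il34 over that of Csf1 was 1.14, 1.73 and 2.05 in SCI mice and 2.36, 1.85 and 1.71 in sham mice. The ranges overlapped, and Il34 exceeded Csf1 in all 6 libraries. The log2 of Csf1 over Il34 averaged -0.65 ± 0.42 in SCI mice and -0.92 ± 0.23 in sham mice (SD, n = 3 each), a difference of 0.27 (exact two-sided permutation p = 0.5, smallest possible 0.1). Without SCI mouse 1, which had the least Il34 of the SCI group, the difference was 0.03.

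Csf2 (ENSMUSG00000018916, chr11:54247271-54249667, minus strand), the gene of GM-CSF, had 0 counts in all 6 libraries. Over a whole group this allows a level of up to 0.149 CPM in SCI mice and 0.133 CPM in sham mice. Its RNA was thus not detectable at this depth in either group. Activated T cells and mast cells are among the known sources of GM-CSF, but they are not the only ones. The T cell genes Trac and Cd8a and 4 of 5 mast cell markers were also at 0 in every library. The 5 T cell markers summed to between 0.186 and 1.34 CPM in SCI mice and between 0.132 and 1.65 CPM in sham mice. Markers of other cell types were well above 0. The 8 endothelial markers summed to 395 to 419 CPM in SCI mice and 337 to 423 CPM in sham mice. The 6 fibroblast markers summed to 308 to 338 CPM in SCI mice and 257 to 401 CPM in sham mice. A link between any of these markers and the lack of Csf2 counts was not tested.

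Csf1r (ENSMUSG00000024621, chr18:61100598-61132149, plus strand) was the most abundant of the 8 genes in every library. It had 888, 669 and 767 counts in SCI mice and 934, 1246 and 325 counts in sham mice, or 108, 103 and 143 CPM in SCI mice against 123, 108 and 95.4 CPM in sham mice. The groups overlapped, and the highest value was in SCI mouse 3. The means were 118 ± 21.8 CPM in SCI mice and 109 ± 13.8 CPM in sham mice (SD, n = 3 each). The fold was 1.07 with a 95% interval of 0.784 to 1.47 (edgeR adjusted p = 0.972). Csf1r overlaps Hmgxb3 on the opposite strand by 873 bases, and since the strand setting of the counting is not given in the sources used here, reads from that stretch cannot be assigned with certainty. Hmgxb3 itself held 252 counts over the 6 libraries.

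Because CSF1R keeps microglia alive, Csf1r was read beside 18 other microglia markers, all of which were tested. Their summed level was 407 to 457 CPM in SCI mice and 431 to 454 CPM in sham mice, so the ranges overlapped. Of the 18, 0 were called higher and 1 lower, against 0.885% of all genes called higher and 0.0442% called lower, and their median log2 fold change was -0.22. The called gene was P2ry12, the ADP receptor by which microglia sense damage, at 2.06 ± 1.01 CPM in SCI mice and 7.77 ± 1.77 CPM in sham mice (SD, n = 3 each; log2 fold change -1.91 ± 0.37, edgeR adjusted p = 0.0157). Its adjusted p was 0.119 without SCI mouse 1, 0.0758 without SCI mouse 3 and 0.0940 without sham mouse 1. In whole tissue, fewer cells of a type and less RNA per cell cannot be told apart.

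**Figure D2:**
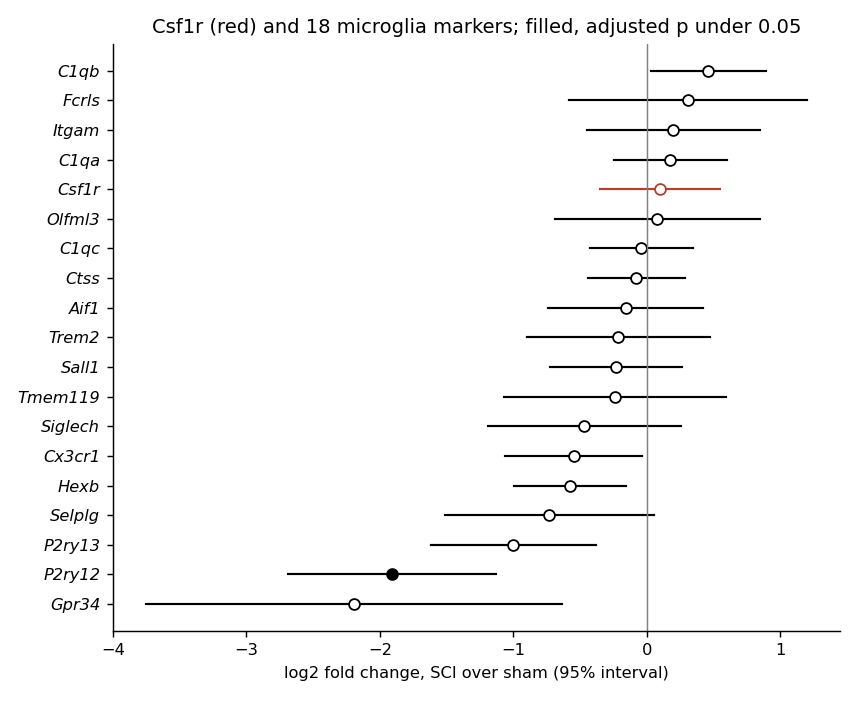
Log2 fold change of SCI over sham for Csf1r (red) and 18 microglia markers, with 95% intervals from the edgeR fit; a filled point has an adjusted p under 0.05. Csf1r lies at 0.10 with an interval across 0, and P2ry12 at -1.91 is the only filled point.

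Relative to the mean log2 level of these 18 genes, Csf1r stood at 3.41, 3.14 and 3.86 in SCI mice and 3.12, 3.202 and 2.74 in sham mice. The means were 3.47 ± 0.36 in SCI mice and 3.02 ± 0.25 in sham mice (SD, n = 3 each), with overlapping ranges. The difference was 0.45 (exact two-sided permutation p = 0.2, smallest possible 0.1). Against the summed counts of the markers it was 0.14.

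Csf2ra (ENSMUSG00000059326, chr19:61223957-61228429, minus strand), the GM-CSF-specific chain, was second in level. It had 239, 226 and 135 counts in SCI mice and 217, 380 and 82 counts in sham mice, or 29.0, 34.8 and 25.2 CPM in SCI mice against 28.6, 32.9 and 24.1 CPM in sham mice. Ranked by CPM, SCI and sham mice alternate. The means were 29.7 ± 4.83 CPM in SCI mice and 28.5 ± 4.43 CPM in sham mice (SD, n = 3 each), and the fold was 1.00 with a 95% interval of 0.744 to 1.34 (edgeR adjusted p = 1.00).

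Csf2rb (ENSMUSG00000071713, chr15:78325752-78353847, plus strand), the shared beta chain, had 66, 68 and 62 counts in SCI mice and 37, 81 and 12 counts in sham mice. This was 8.02, 10.5 and 11.6 CPM in SCI mice against 4.87, 7.02 and 3.52 CPM in sham mice, and every SCI mouse was above every sham mouse. The means were 10.01 ± 1.81 CPM in SCI mice and 5.14 ± 1.76 CPM in sham mice (SD, n = 3 each). The log2 fold change was 0.83 ± 0.32 (SE), a fold of 1.78 with a 95% interval of 1.11 to 2.86, with an unadjusted p of 0.020 and an adjusted p of 0.499 (edgeR). With a library left out, the log2 fold change ran from 0.63 without sham mouse 3 to 1.23 without sham mouse 2. The edgeR adjusted p was 0.541 and 0.132 in these fits, and 0.919 without SCI mouse 3, where the log2 fold change was 0.66.

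The 2 chains of the GM-CSF receptor were also set against each other within each library. The count of Csf2ra over that of Csf2rb was 3.62, 3.32 and 2.18 in SCI mice and 5.86, 4.69 and 6.83 in sham mice, with every SCI ratio below every sham ratio. This ratio was not tested, and it was looked at after the levels were known.

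Csf2rb2, a copy of the beta chain that serves IL-3 in mice, had 8, 10 and 8 counts in SCI mice and 3, 1 and 2 counts in sham mice. Summed, the 26 counts in SCI mice against 6 in sham mice give a ratio of 4.86 after depth, with a 95% counting interval of 1.96 to 14.4, and in the unfiltered edgeR fit its adjusted p was 0.527. The 2 copies are alike in sequence. Of 2127 stretches of 50 bases in the last 500 bases of Csf2rb transcripts, 206 also occur in Csf2rb2, so some reads of 1 copy may have been counted for the other or dropped. The other genes of the shared beta chain family were at or near 0: Il3 and Il5ra had no count, Il5 had 1, in an SCI mouse, and Il3ra had 2 counts in SCI mice and 1 in sham mice.

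Csf3r (ENSMUSG00000028859, chr4:126024550-126044440, plus strand), the G-CSF receptor, had 5, 5 and 1 counts in SCI mice and 0, 3 and 1 counts in sham mice. These are 0.608, 0.769 and 0.186 CPM in SCI mice against 0, 0.260 and 0.293 CPM in sham mice. The groups overlapped, since SCI mouse 3 was below 2 of the sham mice. The 11 counts in SCI mice against 4 in sham mice give a ratio of 3.09 with a 95% counting interval of 0.914 to 13.3, and the unfiltered edgeR fit gave an adjusted p of 0.845. Of 1354 stretches of 50 bases in the last 500 bases of its transcripts, 206 also occur in other genes. SCI mouse 3, with the most Csf3, had the fewest Csf3r counts of its group.

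Csf2rb and Csf3r are carried by neutrophils. The 10 neutrophil markers summed to 57.1 to 83.5 CPM in SCI mice and 21.4 to 47.0 CPM in sham mice, without overlap. Of the 7 tested, 0 were called by edgeR, DESeq2 or limma voom, and 5 were higher at an unadjusted edgeR p under 0.05, which 4.27% of all genes tested were. The log2 fold change was positive in 6 of the 7, with a median of 1.07. S100a8, an abundant neutrophil calcium-binding protein, averaged 23.5 ± 5.74 CPM in SCI mice and 10.02 ± 4.32 CPM in sham mice (SD, n = 3 each). S100a8 and its partner S100a9 were called higher by edgeR in the unfiltered fit (adjusted p = 0.0013 and 0.00079), and also in the filtered fits with the hepatocyte covariate and without sham mouse 2. In the unfiltered fit the adjusted p of S100a8 was 0.0540 without SCI mouse 2 and 0.0781 without sham mouse 3, and that of S100a9 was 0.141 without sham mouse 1 and 0.0612 without sham mouse 3. The defining genes Ly6g, with 5 counts in SCI mice and 4 in sham mice, and Cxcr2, with 8 counts in SCI mice and 10 in sham mice, were near 0. Monocyte markers overlapped, at 361 to 400 CPM in SCI mice and 293 to 514 CPM in sham mice. Only 4 of these 8 markers passed the filter. In sham mice 1 to 3 their sums of 414, 514 and 293 CPM ran with hepatocyte marker shares of 7.88, 11.1 and 5.98% of counts. In SCI mice the order was the reverse, over shares that spanned only 7.50 to 7.73%. How well the sum measures monocytes was not tested. Border macrophage markers overlapped too, at 62.8 to 75.4 CPM in SCI mice and 49.6 to 82.8 CPM in sham mice. The part of any of these cells in the receptor values was not tested.

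**Figure D3:**
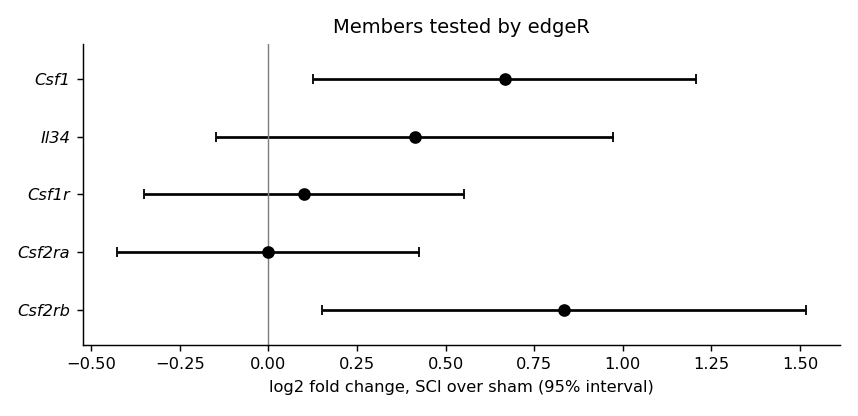
Log2 fold change of SCI over sham, with 95% intervals from the edgeR fit, for the 5 genes that passed the filter on low counts, ligands above receptors. The intervals of Csf1 and Csf2rb lie above 0 before adjustment over all genes, and those of Il34, Csf1r and Csf2ra span it.

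In SCI mice the order of levels was Csf1r, Csf2ra, Il34, Csf1, Csf2rb, Csf3, Csf3r and Csf2. The ranges of Il34 and Csf1 overlapped there, as did those of Csf1 and Csf2rb. In sham mice the order was Csf1r, Csf2ra, Il34, Csf1, Csf2rb and Csf3r, with Csf2 and Csf3 both at 0. Only Csf1 and Csf2rb, and the genes at or near 0, overlapped there. The RNA of CSF1R exceeded that of its 2 ligands together by 5.25, 3.36 and 4.49 times in SCI mice and 6.31, 5.82 and 5.0 times in sham mice. For G-CSF the ligand exceeded the receptor in SCI mice, with 2.0, 2.6 and 26 Csf3 counts for each Csf3r count. These ratios rest on only 5, 5 and 1 Csf3r counts. In sham mice Csf3 had 0 counts beside 0, 3 and 1 Csf3r counts.

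Known inducers of the ligand genes, which are inflammatory cytokines, their receptors and NF-kB subunits, mostly had positive values. Of 13 listed, 8 were tested and 0 were called by edgeR, DESeq2 or limma voom, with 5 higher at an unadjusted edgeR p under 0.05, which 4.27% of all genes tested were. All 8 had a positive log2 fold change with a median of 0.60. Tlr2, a receptor for bacterial lipoproteins and damage signals, had 62, 46 and 13 counts in SCI mice and 10, 29 and 4 counts in sham mice, with a log2 fold change of 1.6 ± 0.46 (edgeR adjusted p = 0.219). In CPM its lowest SCI mouse overlapped the sham range, and with the hepatocyte markers as a covariate it was called. Nfkb1 (1.07 ± 0.37) and Rela (0.56 ± 0.18), which encode NF-kB subunits, had adjusted p values of 0.397 and 0.335 in the same fit. Il1b, the gene of interleukin-1 beta, averaged 19.1 ± 3.88 CPM in SCI mice and 11.5 ± 2.93 CPM in sham mice (SD, n = 3 each; edgeR adjusted p = 0.519).

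Tnf and Il6, cytokine genes below the filter, rose in the unfiltered fit, where Tlr2 was also called (edgeR adjusted p = 0.0150). The adjusted p of Tlr2 there was 0.419 without SCI mouse 1, 0.174 without SCI mouse 2, 0.249 without sham mouse 1 and 0.0777 without sham mouse 3. Tnf had 21, 12 and 5 counts in SCI mice and 0, 1 and 1 counts in sham mice (adjusted p = 0.0079 in that fit). Its adjusted p there was 0.309 without SCI mouse 1 and 0.134 without sham mouse 1. Il6 had 5, 3 and 16 counts in SCI mice and 0 in each sham mouse (adjusted p = 0.0079 in that fit). Set against 3 counts over the sham group, Il6 was 8.97-fold higher, again with the SCI counts taken as exact. Its adjusted p was 0.589 without SCI mouse 3, 0.0673 without sham mouse 1 and 0.0659 without sham mouse 2. The fold was then 4.08, 5.95 and 4.38. The other listed inducers below the filter did not rise. Il1a had 3, 8 and 1 counts in SCI mice and 2, 22 and 1 counts in sham mice. Tlr4 had 7, 6 and 8 counts in SCI mice and 6, 20 and 3 counts in sham mice. Their log2 fold changes in the unfiltered fit were -0.74 and -0.21 (edgeR adjusted p = 0.845 and 0.965). Il17a had no count in any library.

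Of the genes that carry the receptors' signals inside the cell, none passed the test. Of 19 listed, 18 were tested and 0 were called by edgeR, DESeq2 or limma voom, with 2 higher and 0 lower at an unadjusted edgeR p under 0.05, where 4.27% of all genes tested were higher and 3.11% lower. The median log2 fold change was 0.15. Stat3, the transcription factor downstream of the G-CSF receptor and of many other cytokine receptors, averaged 112 ± 1.92 CPM in SCI mice and 76.2 ± 7.78 CPM in sham mice (SD, n = 3 each; log2 fold change 0.52 ± 0.19, edgeR adjusted p = 0.428). With the hepatocyte markers as a covariate, Stat3 was called. Tyrobp, an adaptor that couples CSF1R to downstream signals, averaged 26.5 ± 4.88 CPM in SCI mice and 18.8 ± 0.90 CPM in sham mice (edgeR adjusted p = 0.606). Jak2, the kinase of the GM-CSF and G-CSF receptors, averaged 17.4 ± 5.08 CPM in SCI mice and 15.7 ± 2.88 CPM in sham mice, with overlapping groups.

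Feedback and early target genes of JAK-STAT signalling, which many cytokines besides the colony-stimulating factors induce, held the called genes of the pathway. Of 10 listed, 7 were tested, 2 were called higher and 0 lower, where 0.885% of all genes tested were called higher and 0.0442% lower, and the median log2 fold change was 0.68. Socs3, which blocks the G-CSF and IL-6 receptors, had 96, 118 and 28 counts in SCI mice and 12, 40 and 4 counts in sham mice. Its mean was 11.7 ± 6.47 CPM in SCI mice and 2.07 ± 1.22 CPM in sham mice (SD, n = 3 each; log2 fold change 2.26 ± 0.45, edgeR adjusted p = 0.0208). Bcl2l1, the gene of the survival protein BCL-XL, averaged 86.1 ± 7.92 CPM in SCI mice and 46.2 ± 6.50 CPM in sham mice (log2 fold change 0.89 ± 0.18, edgeR adjusted p = 0.0186). Both calls were lost with some libraries left out. The adjusted p of Socs3 was 0.0646 without SCI mouse 1, 0.162 without SCI mouse 2, 0.155 without sham mouse 1 and 0.0774 by limma voom. That of Bcl2l1 was 0.0593, 0.0995 and 0.104 without SCI mice 1, 2 and 3 and 0.236 without sham mouse 1.

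Of the other tested genes in that list, Mcl1 (0.68 ± 0.17), Cish (0.68 ± 0.31), Socs2 (0.53 ± 0.22) and Pim1 (0.47 ± 0.21) had positive log2 fold changes and Pim2 a negative one (-0.71 ± 0.32), with edgeR adjusted p values between 0.109 and 0.662. Cish and Socs2 are feedback inhibitors that STAT5 induces, and Pim1 and Pim2 are survival kinases. Mcl1, which encodes a survival protein, was called by DESeq2 and with the hepatocyte covariate. Without sham mouse 2 the list had 2 called genes, again Socs3 and Bcl2l1.

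**Figure D4:**
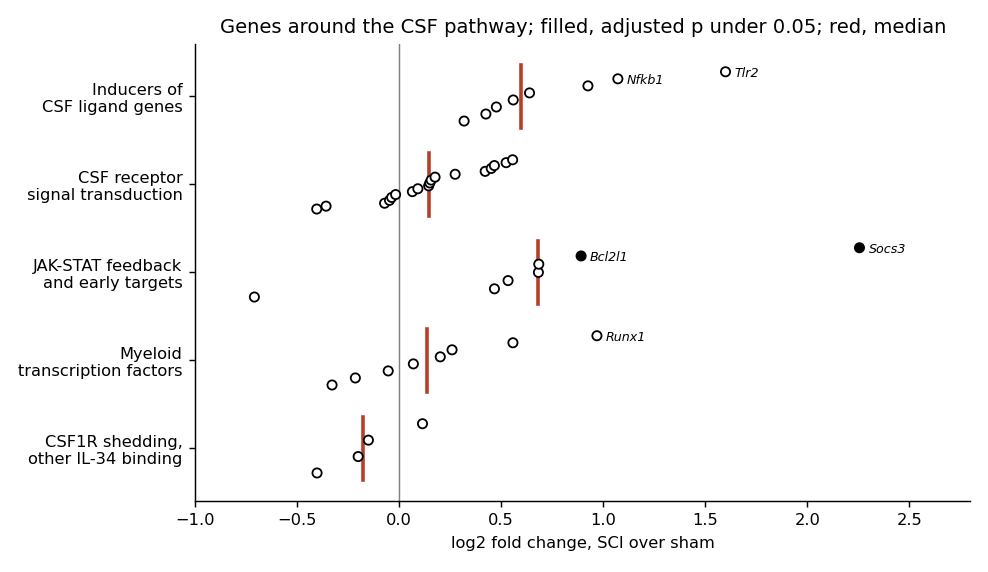
Log2 fold change of SCI over sham for the tested genes of 5 lists around the colony-stimulating factor pathway; each circle is a gene, filled where the edgeR adjusted p is under 0.05, and the red line is the list's median. Socs3 and Bcl2l1 are the only filled circles, and the medians run from -0.18 for shedding and other binding proteins to 0.68 for JAK-STAT feedback.

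Myeloid transcription factors that switch on the receptor genes gave 0 called of 8 tested by edgeR, DESeq2 or limma voom and 1 higher at an unadjusted edgeR p under 0.05 (4.27% of all genes tested), with a median of 0.14. Spi1, which encodes PU.1, the factor that Csf1r needs, averaged 7.04 ± 3.43 CPM in SCI mice and 4.57 ± 0.735 CPM in sham mice (SD, n = 3 each), with overlapping groups. Runx1 had 46, 34 and 25 counts in SCI mice and 15, 38 and 7 counts in sham mice, with a log2 fold change of 0.97 ± 0.37 (edgeR adjusted p = 0.484). Of the 4 genes for proteins that shed CSF1R or bind IL-34 apart from it, 0 were called by any of these tools and 0 had an unadjusted edgeR p under 0.05, with a median of -0.18. Adam17, the protease that sheds CSF1R, averaged 12.2 ± 1.58 CPM in SCI mice and 10.6 ± 2.95 CPM in sham mice, and Ptprz1, a receptor phosphatase that binds IL-34, averaged 56.2 ± 15.5 CPM in SCI mice and 64.4 ± 26.7 CPM in sham mice (SD, n = 3 each).

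The genes whose level followed Il34 and Csf1r most closely over the 6 libraries were looked up among 10473 tested genes with a mean of at least 5 CPM. For Il34 they were Egln2, Aptx and Nop2, with Pearson r of 0.999, 0.982 and 0.981. For Csf1r they included Fdxr and Ndufb11, with r of 0.998 and 0.989. An r over 0.9 was reached by 88 genes for Il34 and 269 for Csf1r. With 6 points and 10473 genes, r values this high can also arise among unrelated genes, and how many would was not estimated. The points share their libraries and depth, so the values are a description.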

How the data were processed

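RNA of 6 mice was sequenced from QuantSeq Forward libraries, which read the 3′ ends of transcripts. The authors deposited whole-number counts per Ensembl gene, not normalized, 1 table per mouse. Per the submitters' processing notes, STAR 2.7.2b and DESeq2 1.24.0 were among the tools, with builds mm10 and GRCm38. No source used here gives the counting tool, its strand setting or molecular identifiers, so intervals and limits cover counting error only.

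Symbols matched 42462 of 43432 identifiers. Positions came from GENCODE M21 (GRCm38). The 6 libraries were fitted in edgeR 4.0.16 (R 4.3.3) with filterByExpr by group, TMM scaling and the robust quasi-likelihood test, with a prior count of 0.125 and Benjamini-Hochberg adjustment over all genes tested. The procedure was tested on simulated data. The SE is the absolute log2 fold change over the square root of F. CPM used library totals. Ratios used TMM-scaled CPM plus 0.5. The alternatives were other scalings, no filter, a stricter filter, DESeq2 1.42.0, limma 3.58.1 (voom), a replicate block, the mean log2 CPM of hepatocyte markers as a covariate, and leaving out each library. The unfiltered fits of Csf3 and Csf3r under further settings were added after seeing the data.

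Text names all 8 members and, of a list, at most the 5 genes with the smallest p plus called ones. Some list genes beyond that rule (Jak2, Spi1, Adam17, Ptprz1, the shared beta chain family, cell type markers, Hmgxb3 and Ptgs2) were named for their role. Il1a, Il17a and Tlr4 were named because they fell below the filter as Tnf and Il6 did. The genes most like Il34 and Csf1r were the 3 with the highest r, and 1 of those for Csf1r is not reported here. The members and lists were chosen with earlier results of these data known. P-values of the filtered fits draw on the spread between these mice. In the unfiltered fits the variance was in effect shared over genes. A gene's own spread between mice therefore added little to its p-value there. Counts of same-group libraries differed by more than sampling noise (chi-square per degree of freedom 6.97 to 38.0), and none was treated as a duplicate.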

Additional observations from a re-analysis of the deposited data

How the results depend on the processing

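The numbers of genes called higher and lower, 120 and 6, were 182 and 42 without a filter, 218 and 33 with the hepatocyte covariate, 105 and 3 with a stricter filter (20 counts in every library of 1 group), 141 and 11 with DESeq2, 109 and 4 with limma voom, and 62 to 132 and 1 to 14 with each library left out. Same-numbered mice did not deviate together (r -0.092, -0.073 and -0.18), so the numbers were not taken as pairs. With the replicate block 81 and 1 genes were called, the Csf1 over Il34 difference was 0.27 (exact sign-flip p = 0.75, smallest possible 0.25) and that of Csf1r over microglia markers 0.45 (p = 0.5). None of the 5 tested members was called by any of these fits. Csf1 ranged over 0.57 to 0.76 with a library left out and 0.63 to 0.70 otherwise (log2), Csf2rb over 0.63 to 1.23 and 0.79 to 0.94, and Il34 over 0.16 to 0.67 and 0.31 to 0.44. Csf1r ran from -0.12 to 0.23 and its CPM difference from -3.38 to 16.7 with a library left out. Csf2ra, near 0, changed sign with total counts (0.046), limma voom (0.0030), the replicate block (0.031) and the hepatocyte covariate (0.020), ran from -0.15 to 0.19 with a library left out, and its CPM difference from -1.42 to 3.38. Csf3 ran from 7.05 to 7.54 in the 4 filtered fits that kept it, and from 6.51 to 7.54 without a filter with a library left out (adjusted p up to 0.0077). The difference of Csf1 over Il34 ran from 0.03 to 0.45 and that of Csf1r over microglia markers from 0.26 to 0.62. No scaling moved the median of all genes by 0.1. Where results differed, the cause was not tested. Counts of at most 26 per library limit Csf3 and Csf3r, and 3 mice a group limit the exact tests between groups to p = 0.1 at best.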

Other observations

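The inflammatory transcripts counted beside the colony-stimulating factors did not follow a common order over the SCI mice. Csf3 was highest in SCI mouse 3, with 26 counts against 10 and 13 in mice 1 and 2, and Il6 was highest there too, with 16 counts against 5 and 3. Tnf, Tlr2 and Socs3 were lowest in that mouse, with 5, 13 and 28 counts, against 21, 62 and 96 in mouse 1 and 12, 46 and 118 in mouse 2. The library of SCI mouse 3 was the smallest of its group, at 5364263 counts. Over 3 mice these are values only, and no relation between the genes was tested.

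Among border macrophage markers, Pf4, which encodes platelet factor 4 and is also abundant in platelets, was higher, at 8.69 ± 1.71 CPM in SCI mice and 2.14 ± 0.952 CPM in sham mice (SD, n = 3 each; log2 fold change 2.12 ± 0.34, edgeR adjusted p = 0.0040, and 0.0540 without sham mouse 1). It was the 1 called gene of 5 tested in that list, where 0.885% of all genes tested were called higher. Mrc1 and Lyve1, the mannose and hyaluronan receptors of these cells, had log2 fold changes of -0.0020 ± 0.27 and 0.02 ± 0.30.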
